A study of Mus musculus with 22 samples.

Results

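The genes described here are 9 members of the retinoic acid pathway, measured by 13 probe sets and making up 9 of the 18193 genes that the array names: the binding proteins Crabp1 and Crabp2, the retinal dehydrogenases Aldh1a1, Aldh1a2 and Aldh1a3, and the nuclear receptors Rara, Rarb, Rxra and Rxrb. They were chosen by name, together with a course already known from these values, in which Crabp1 was high in early ganglion cells and low at birth. That course is therefore described and not tested. The study profiled 22 single mouse retinal cells, each on its own Affymetrix 430 2.0 array, to compare developing ganglion and amacrine cells, and the cells were named as ganglion, amacrine or photoreceptor only after profiling.

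The 13 ganglion cells, which send their axons to the brain, came from E12.5 (3 cells), E13.5 (1), E14.5 (2), E15.5 (3) and the day of birth, P0 (4). The 6 amacrine cells, inhibitory interneurons, came from E16.5 (1) and P0 (5). The 3 photoreceptors came from P0 (2) and from an adult rod (1). No treatment or genotype is named for any group, a CD1 background is given for 9 cells and no strain for the other 13, and no animal or litter is named, so cells of a type and stage may share an animal. Cells of a type and stage were averaged into 1 sample, and the spread between the 9 resulting samples includes the spread between stages. In the fit of these samples the prior df was infinite, so each printed SE and p rests on the spread of genes of like level rather than on the gene's own. Cell names recur across stages, so each is given with its stage.

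Retinoic acid is made from vitamin A: retinol is oxidised to retinal, and the Aldh1a enzymes oxidise retinal to retinoic acid. Inside cells the acid is bound by the Crabp proteins. Crabp2 can deliver it to the nuclear receptors, which act as pairs of a retinoic acid receptor (Rara, Rarb, Rarg) and a retinoid X receptor (Rxra, Rxrb, Rxrg), and Cyp26 enzymes break it down. In the developing eye, Aldh1a1 is made in the dorsal retina and Aldh1a3 in the ventral retina. In adult photoreceptors the same vitamin supplies the chromophore of the visual pigments.

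Sequences upstream of the gene start bear on these genes because receptor pairs bind direct repeats of a short motif. RefSeq promoter windows (GRCm38.p6) were listed for 7 of the 9 genes, 13 windows in all, and the 250 bases before each start were searched on both strands. The motif was AGGTCA, the usual form, or else AGTTCA, a known variant of it, or else GGGTCA, known in the same way, or else GGTTCA, read as a pair in the same direction. Pairs with this spacer contain 2 single motifs, so the counts of pairs and of single motifs overlap. A pair with a spacer of 5 bases stood in 29 of 32851 windows (0.0883%), and 1 of the 13 windows, that of Rarb, held it. Spacers of 1 and 2 bases were searched too, stood in 0.164% and 0.174% of all windows and in 0 of the 13. The Rarb gene is itself a known target of retinoic acid, and its pair is GGTTCA and AGTTCA, both among the variants searched for. A search with these variants would find such a pair in a known target, so the 1 of 13 is a description and no test. Cyp26a1, the degrading enzyme, was looked up beside Rarb as another known target and also held such a pair, on the opposite strand. The Crabp1 window held none of the 4 single motifs, which stood in 38.6% of all windows and in 4 of the 13, but it held 5 GC boxes (GGGCGG on either strand), a motif in 32.7% of all windows and in 7 of the 13. The Rarb window is at chr14:16575477-16575726 on the minus strand, the Cyp26a1 window at chr19:37697558-37697807 and the Crabp1 window at chr9:54764498-54764747, both on the plus strand. Capitals mark the repeat with its spacer in Rarb and Cyp26a1 and the GC boxes in Crabp1.
Rarb: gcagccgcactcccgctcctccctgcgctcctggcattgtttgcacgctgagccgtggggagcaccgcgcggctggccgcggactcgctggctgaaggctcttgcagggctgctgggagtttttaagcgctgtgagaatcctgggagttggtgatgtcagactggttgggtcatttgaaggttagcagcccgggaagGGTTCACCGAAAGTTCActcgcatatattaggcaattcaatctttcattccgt
Cyp26a1: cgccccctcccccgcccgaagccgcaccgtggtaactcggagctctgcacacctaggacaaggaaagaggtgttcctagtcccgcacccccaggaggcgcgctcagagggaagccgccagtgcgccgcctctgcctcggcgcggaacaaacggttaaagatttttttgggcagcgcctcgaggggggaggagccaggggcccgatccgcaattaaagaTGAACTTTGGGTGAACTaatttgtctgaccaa
Crabp1: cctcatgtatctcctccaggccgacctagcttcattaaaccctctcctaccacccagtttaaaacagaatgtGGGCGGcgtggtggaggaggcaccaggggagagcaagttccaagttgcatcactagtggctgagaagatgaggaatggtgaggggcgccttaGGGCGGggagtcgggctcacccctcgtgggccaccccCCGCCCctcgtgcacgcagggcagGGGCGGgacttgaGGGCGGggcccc
Where each match lies was read from these letters alone, and the arrays measure no binding.

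Values are log2 of the authors' signal intensity, with signals under 200 raised to a floor of 7.64. A gene at a signal of 1000 (log2 9.97) or more is called detected in that cell. Between 1517 and 4351 genes were detected per cell, with a median of 2995.5. Of 12 ganglion cell markers measured, 7 to 11 were detected in each ganglion cell, 0 to 4 in each amacrine cell and 1 to 2 in each photoreceptor. Of 8 amacrine markers, 3 to 5 were detected in each amacrine cell, 0 to 1 in each ganglion cell and 1 to 2 in each photoreceptor. The amacrine marker Gad1 was at 13.92 in P0 photoreceptor E1, 13.14 in the adult rod and at the floor in H1. Of 7 photoreceptor markers, 6 to 7 were detected in each photoreceptor, 0 to 1 in each ganglion cell and 0 in each amacrine cell. Those in ganglion cells were Crx, at 11.82 in E14.5 cell E1, and Rom1, in 1 E12.5 cell. Since the cells were named from their own profiles, these counts are no independent check of the names. Both E14.5 ganglion cells stood apart. Lens markers were detected there at 5 (cell D8) and 6 (cell E1) of 8 and in the E13.5 cell at 1 of 8, against 0 of 8 in every other cell. Lens crystallin Cryaa was at 14.82 in D8, 15.09 in E1 and 12.52 in the E13.5 cell. Progenitor and cell cycle genes were detected at 5 of 10 in D8 and 8 of 10 in E1, against 0 to 4 elsewhere. Their summed signal was 32655 in D8, within the 2000 to 68495 of the other cells, and 100023 in E1, above all of them. Blood and immune markers also moved with stage: 2 to 3 of 8 were detected in each ganglion cell of E14.5 and E15.5, with summed signals of 22407 to 151746, and 0 of 8 in each of E12.5, E13.5 and P0, where the sums were 1600 to 2036. The embryonic globin Hbb-y stood at 13.83 to 17.05 in those 5 cells and at most at 8.40 in the other ganglion cells. Hba-x was detected in the same 5 cells and in no other. Hbb-bh1 was detected in 1 E15.5 ganglion cell, Alas2 in 1 E14.5 ganglion cell and the E16.5 amacrine cell, and Csf1r in the adult rod. Hba-a1, Ptprc and Aif1 were detected in no cell.

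Crabp1, the binding protein found in the cytoplasm of many embryonic neurons, was the most often detected of the 9 genes, in 11 of 22 cells: 8 of 13 ganglion cells, 2 of 6 amacrine cells and the adult rod. At E12.5 the 3 ganglion cells stood at 15.64 (E4), 15.97 (F3) and 13.33 (F6), a mean of 14.98 ± 1.44 (SD, n = 3 cells). The E13.5 cell stood at 15.52, and the E14.5 cells at 15.85 (D8) and 15.60 (E1), a mean of 15.72 ± 0.18 (SD, n = 2). All 6 of these early cells detected the gene, with no cell below the E12.5 cell F6. At E15.5 the cells divided: B1 stood at 14.73 and both B5 and C7 at the floor, with raw signals of 132.3 and 152.0 against 27159 in B1. The 3 E15.5 cells held 9 (B1), 8 (B5) and 9 (C7) of the 12 ganglion markers, so the cells with and without Crabp1 were alike in that count. Hbb-y was at 17.05 in B1, 15.82 in B5 and 16.79 in C7, high in the cell with Crabp1 and in both without it, and the part of blood transcripts in the course over stages was not tested. At P0, cells A3, C6 and A6 were at the floor and F1 was at 11.07, a mean of 8.50 ± 1.71 (SD, n = 4).

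**Figure D1:**
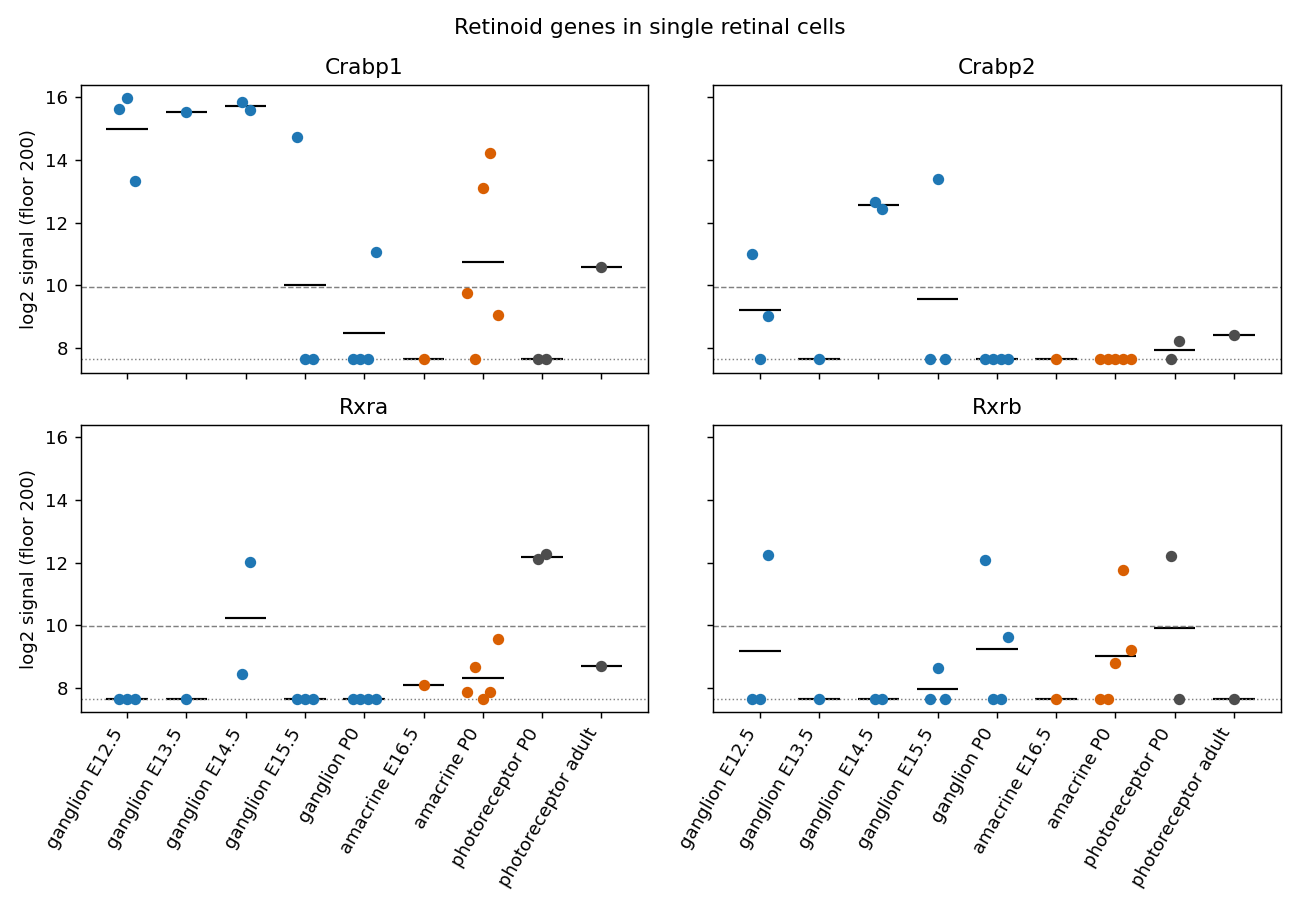
Log2 signal (floor 200, log2 7.64) of Crabp1, Crabp2, Rxra and Rxrb on the vertical axis in each of 22 cells, grouped by type and stage on the horizontal axis; points are cells, short bars are group means, the dotted line is the floor and the dashed line the detection level. Crabp1 is at 13.33 or above in the 6 ganglion cells of E12.5 to E14.5 and detected in 2 of the 7 of E15.5 and P0, while Crabp2, Rxra and Rxrb are at the floor in most cells.

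In log2 terms the E12.5 mean exceeded the P0 mean by 6.48, where the median difference over all 7183 genes tested was -0.08, and the cells of the stages did not overlap. Over all genes tested, 3.48% had E12.5 cells all above the P0 cells and 2.59% all below. With the E13.5 and E14.5 cells added to the early side the difference was 6.82 and again without overlap, as in 0.738% of genes (0.891% the other way). These values chose the genes, and nothing is read from them. Most P0 values lie at the floor, so the size of the difference depends on where the floor is set. Detection in all 6 early and at most 2 of 7 later ganglion cells was shared by 37 of the 7183 genes (0.515%), among them the cannabinoid receptor gene Cnr1 and Nhlh2, a transcription factor of young neurons, both picked from the 37 after their values were seen.

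Amacrine cells were mixed. The E16.5 cell J6 was at the floor, and at P0 the cells stood at 9.77 (A4), 7.64 (D1), 13.09 (F6), 14.20 (G3) and 9.06 (B1), a mean of 10.75 ± 2.78 (SD, n = 5). Cells F6 and G3 were thus above every P0 ganglion cell, while D1 was no higher than the lowest of them. Ganglion markers in F6 and G3 were detected at 2 and 1 of 12, within the range of the other amacrine cells, A4 (0), D1 (2), B1 (3) and J6 (4). The P0 amacrine mean exceeded the P0 ganglion mean by 2.25, within a pooled SD of 2.38 between cells, and the groups overlapped. At P0, 0 of the 9 genes had amacrine and ganglion cells that did not overlap, against 0.334% of tested genes higher and 1.66% lower in amacrine cells. Only 4 of the 9 were among the genes tested. Both P0 photoreceptors were at the floor and the adult rod at 10.60. In order of their means, Crabp1 was highest in ganglion cells of E14.5, E13.5 and E12.5, then in P0 amacrine cells, the adult rod, E15.5 ganglion cells and P0 ganglion cells, with the E16.5 amacrine cell and the P0 photoreceptors at the floor. The first 3 of these differ by less than the SD of the E12.5 cells, and the P0 amacrine and E15.5 ganglion means by less than either SD.

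Crabp2, the relative that can hand retinoic acid to its receptors, was detected in 4 cells, all of them embryonic ganglion cells (4 of 9, against 0 of the other 13 cells). At E12.5 it stood at 11.01 in E4, 7.64 in F3 and 9.01 in F6. The E13.5 cell was at the floor, and the E14.5 cells stood at 12.66 (D8) and 12.43 (E1). At E15.5 cell B5 had the highest Crabp2 of all cells, 13.38, with B1 and C7 at the floor. All 4 P0 ganglion cells and all 6 amacrine cells were at the floor, and photoreceptors reached at most 8.42. Within E15.5, then, the binding proteins lay in different cells: Crabp1 in B1 without Crabp2, Crabp2 in B5 without Crabp1, and neither in C7. In the other 3 cells with Crabp2, Crabp1 was detected too. The E12.5 mean of 9.22 ± 1.69 (SD, n = 3) exceeded the P0 mean by 1.58, with F3 at the floor like the P0 cells, so the stages overlapped. Of the 4 cells with Crabp2, the 2 of E14.5 are those with lens and progenitor transcripts, whose part in the result was not tested.

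**Figure D2:**
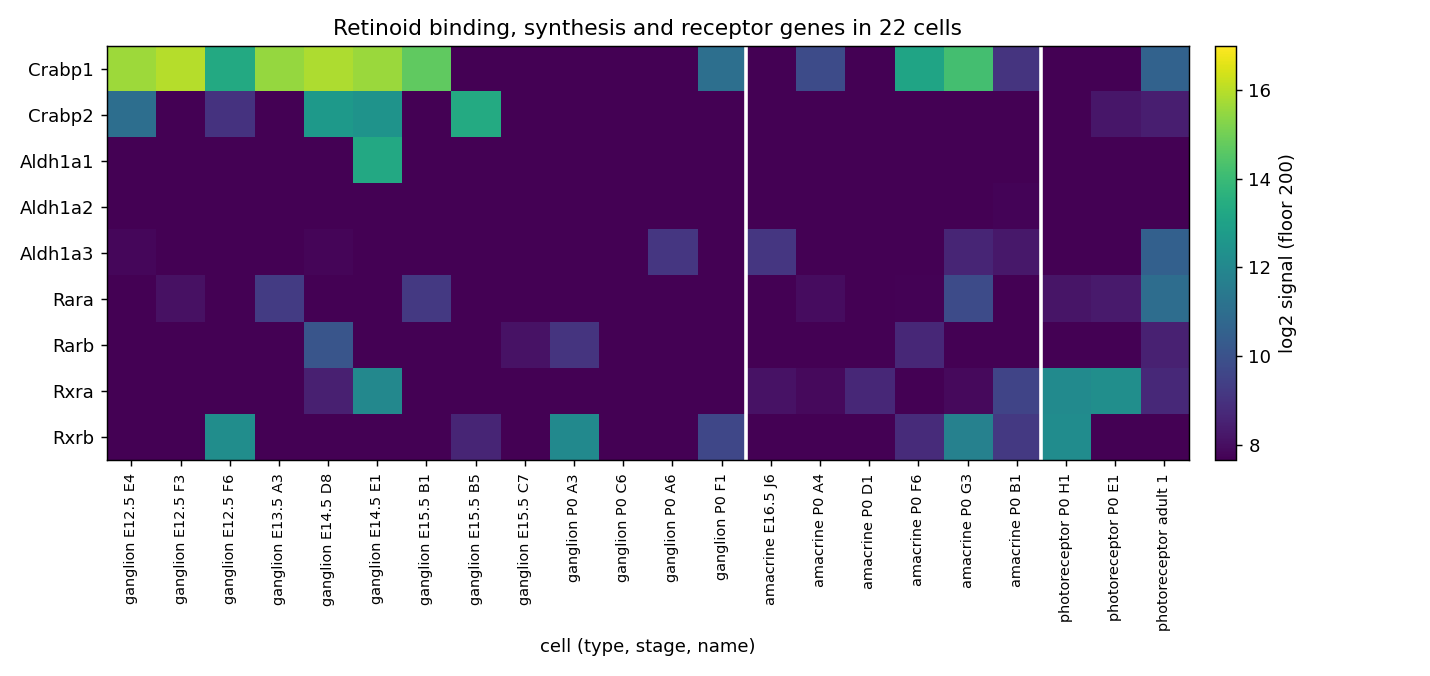
Log2 signal (colour, floor 200) of the 9 genes in rows over the 22 cells in columns, ordered by type and stage, with white lines between types. Crabp1 fills the early ganglion columns and a few amacrine ones, Crabp2 appears in 4 embryonic ganglion columns, the 3 Aldh1a rows are dark but for 1 E14.5 ganglion cell and the adult rod, and Rxra is bright in both P0 photoreceptors.

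Of the enzymes that make retinoic acid, none was detected in more than 1 cell. Aldh1a1 stood at 13.31 in E14.5 ganglion cell E1 and at the floor in the other 21 cells. That cell also had 6 of 8 lens and 8 of 10 progenitor and cell cycle markers, whose part in the result was not tested. It detected 3 of 6 genes of a dorsal retina list (Tbx2 at 10.28, Efnb2 at 12.14 and Tbx3 between them) and 0 of 3 ventral ones, whereas D8 detected 0 of 6 dorsal and 1 of 3 ventral genes (Vax2 at 11.41). These 4 genes were named after their values were seen, and the remaining dorsal genes, Tbx5, Bmp4 and Efnb1, were not detected in E1. Over all genes, 4136 were detected in E1 and 3112 in D8, and the part of that in this contrast was not tested. Cells at the floor for Aldh1a1 detected up to 2 of the 6 dorsal genes, some at higher values than E1. Tbx2 was at 12.01 in E12.5 ganglion cell E4, Tbx3 at 13.63 in E15.5 ganglion cell B1 and Efnb2 at 14.20 in P0 amacrine cell A4. Cyp26a1 was detected in E1 as well, at 11.27, and in no other cell. Aldh1a2 was not detected in any of the 22 cells. Aldh1a3 was detected by 1 of its 3 probe sets, in the adult rod at 10.50, with E16.5 amacrine cell J6 and P0 ganglion cell A6 next at 9.12 each. Its other probe sets reached at most 8.66 and 7.80, so they did not detect it in the rod. The rod and J6 had 55.0% and 57.9% of genes above the floor, against 20.6% to 37.2% in the other cells. The part of that in their low Aldh1a3 values was not tested, nor its part in the Crabp1 and Rara values of the rod.

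The receptors were each detected in few cells. Rara was detected in the adult rod at 10.97, with P0 amacrine cell G3 at 9.79, the E13.5 ganglion cell at 9.27 and E15.5 ganglion cell B1 at 9.21 below the detection level. Rarb was detected in E14.5 ganglion cell D8 at 10.11, with P0 ganglion cell A3 next at 9.04. The 2 cells of E14.5 thus differed, D8 having Rarb and E1 having Aldh1a1, Cyp26a1 and Rxra.

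Rxra, the partner of many nuclear receptors, was detected in 3 cells by 1 of its 3 probe sets. It stood at 12.12 (H1) and 12.26 (E1) in the P0 photoreceptors, at 12.03 in E14.5 ganglion cell E1, and at 8.70 in the adult rod. That ganglion cell also had the photoreceptor marker Crx at 11.82, whose part in the result was not tested. All 4 P0 ganglion cells were at the floor, and P0 amacrine cells lay between 7.64 and 9.57. The P0 photoreceptor mean of 12.19 ± 0.10 (SD, n = 2) exceeded the P0 ganglion mean by 4.54 and the P0 amacrine mean by 3.86, and neither pair of groups overlapped. Over all genes tested, 5.55% were likewise higher in both P0 photoreceptors than in every P0 ganglion cell, and 4.3% than in every P0 amacrine cell, so such separation between so few cells is common. Of the 9 genes, 2 were higher without overlap in P0 photoreceptors than in P0 ganglion cells (Rxra, and Rara below the detection level at 8.16 and 8.33) and 0 lower, against 7.88% of tested genes lower. Against P0 amacrine cells 1 was higher, Rxra, and 0 lower, where 2.42% of tested genes were lower. Only 4 of the 9 genes were among those tested, without Rara, and 2 of the 3 cells that admitted Rxra were these photoreceptors. The shares thus come from an unlike set of genes. With 1 sample for each type at P0 these differences have no test. The remaining 2 Rxra probe sets detected it nowhere and reached at most 7.90 and 8.47, and so do not show the photoreceptor signal.

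Rxrb was detected in 4 cells spread over all 3 types. They were E12.5 ganglion cell F6 at 12.24, P0 ganglion cell A3 at 12.08, P0 amacrine cell G3 at 11.76 and P0 photoreceptor H1 at 12.21. Where it was detected the level was much alike, and 14 of the 22 cells were at the floor. Cells of 1 group therefore ranged from the floor to about the highest level, as at E12.5, where E4 and F3 were at the floor. The E12.5 mean was 9.18 ± 2.65 (SD, n = 3) and the P0 ganglion mean 9.25 ± 2.10 (SD, n = 4), a difference of -0.07 that is within the spread of the cells.

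Counted by cell, 7 of the 22 cells detected none of the 9 genes, 8 detected 1 of them, and the most was 4, in E14.5 ganglion cell E1 (Crabp1, Crabp2, Aldh1a1 and Rxra). D8 detected 3 (Crabp1, Crabp2 and Rarb) and so did the adult rod (Crabp1, Aldh1a3 and Rara). Of all 18193 genes a median of 2995.5 was detected per cell, with 4136 in E1, 3112 in D8 and 2511 in the rod. The part of that number in the counts of the 9 genes was not tested. Crabp1, chosen for its high early values, was detected in 11 of 22 cells and each of the other 8 genes in at most 4. Whether these 8 are detected in fewer cells than other genes was not tested. Of the 8 genes other than Crabp1, 0 had E12.5 and P0 ganglion cells that did not overlap. Over all genes tested, 3.48% were higher at E12.5 without overlap and 2.59% lower, so a count of 0 among 8 says little. Of these 8, only Crabp2, Rxra and Rxrb were among the genes tested.

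The comparison of types over all stages asked whether a gene differed between ganglion samples (n = 5) and amacrine samples (n = 2). Ganglion samples ran from E12.5 to P0 and amacrine samples came from E16.5 and P0, so type cannot be told apart from stage. The same holds for the photoreceptor samples, which came from P0 and an adult. Only Crabp1, Crabp2, Rxra and Rxrb were detected in the 3 cells required for the test, as were 7183 of all 18193 genes. The test was limma with Benjamini-Hochberg adjustment over those 7183 genes. Crabp1 had means of 12.95 ± 3.42 (SD, n = 5) in ganglion and 9.20 ± 2.20 (SD, n = 2) in amacrine samples, a difference of 3.75 ± 1.47 (SE) that did not pass the limma test (adjusted p = 0.999). From its own spread alone the SE was 2.56. Over the alternatives tried the difference ranged from 2.19 to 4.18, and the ganglion values are those that chose the gene. At P0, the stage shared by both types, the Crabp1 mean was instead higher in amacrine than in ganglion cells, by 2.25, with overlap. Crabp2 differed by 1.68 ± 1.05, Rxra by -0.05 ± 1.04 and Rxrb by 0.01 ± 0.88 (SE, limma adjusted p = 0.999 for each). Crabp2 entered the test through ganglion cells alone, with every amacrine cell at the floor. It could therefore not be lower in ganglion samples, and its difference is a description. The limma test called 0 of the 4 genes, and 1 of them, Crabp1, had an unadjusted p under 0.05, as did 3.94% of all genes. With each gene's own variance 0 of the 4 did. It called 5 of all 7183 genes (0.0696%; 0.0418% higher and 0.0278% lower in ganglion samples). Without both E14.5 cells, Crabp1 differed by 3.05, and Crabp2 and Rxra no longer reached 3 cells.

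Photoreceptor samples (n = 2) were compared with ganglion and amacrine samples, each type weighted equally. Rxra had a photoreceptor mean of 10.45 against 8.16 in ganglion and 8.21 in amacrine samples, a difference of 2.26 ± 1.02 (SE) that did not pass the limma test (adjusted p = 0.316). From its own spread alone the SE was 1.14. Of the 3 cells that admitted Rxra to the test, 2 were the P0 photoreceptors, so the difference of 2.26 is a description. The P0 photoreceptors carried that value, the rod being at 8.70: without the rod the difference was 4.002, and over the alternatives it ranged down to 1.43, with a floor of 500. Crabp1 differed by -1.95 ± 1.45 (limma adjusted p = 0.584), Crabp2 by -0.31 ± 1.03 (adjusted p = 0.914) and Rxrb by 0.45 ± 0.87 (adjusted p = 0.832). Of the 4 genes 0 were called by limma and 1, Rxra, had an unadjusted p under 0.05, as did 12.2% of all genes, and with each gene's own variance 0 did, while 153 of all 7183 genes (2.13%) were called, 1.5% higher and 0.626% lower in photoreceptors. A p that misses the threshold does not show that the types are alike in these genes.

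**Figure D3:**
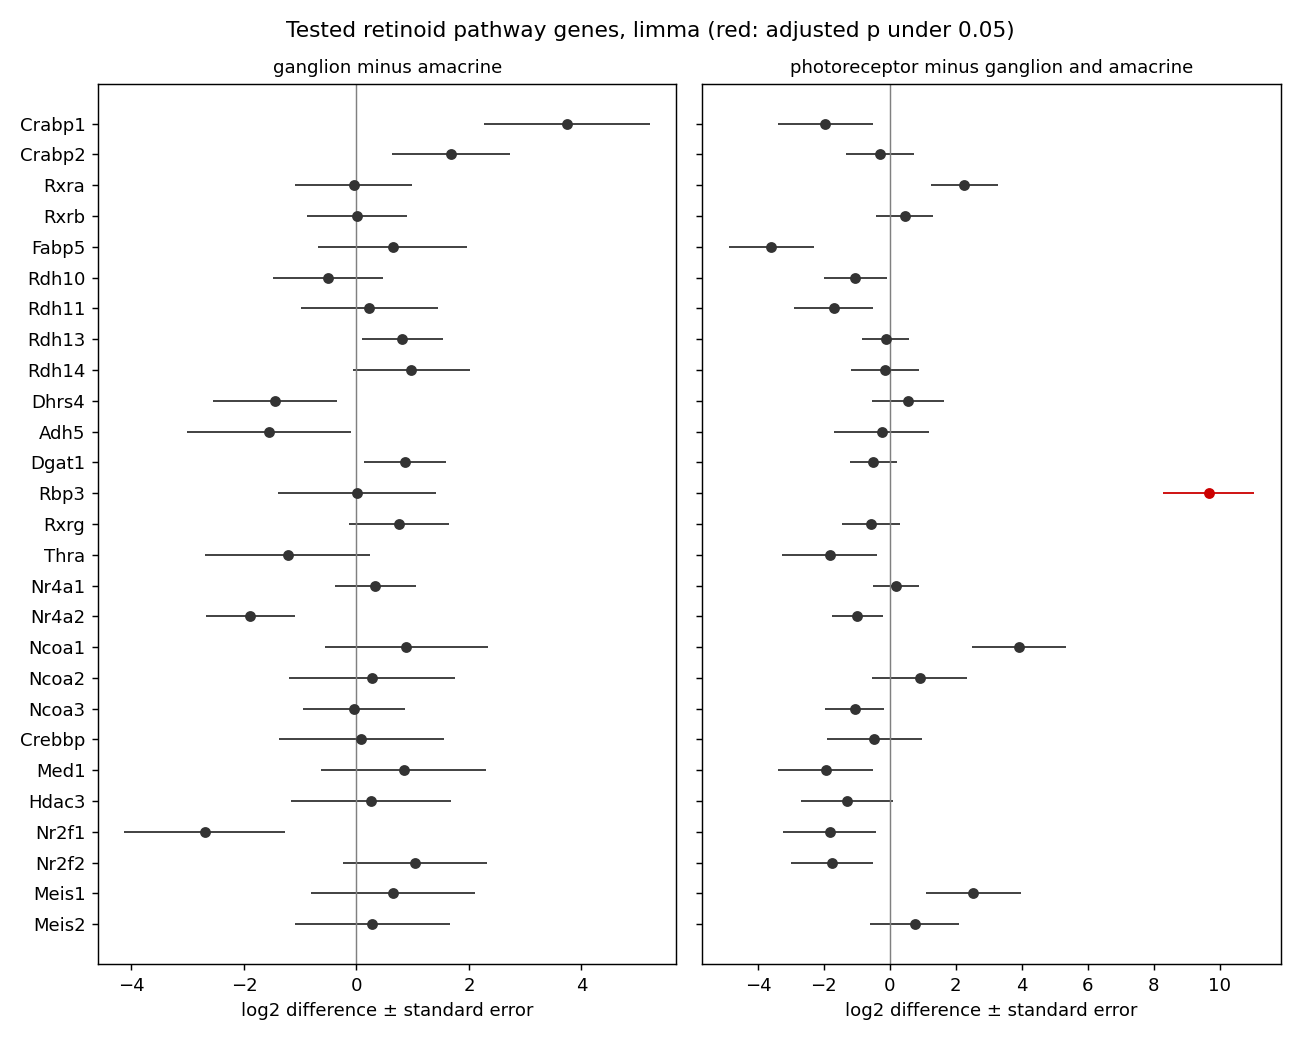
Difference in log2 signal with its SE for the retinoid genes that were tested, ganglion minus amacrine in one panel and photoreceptor minus the average of the other types in the other panel, whose horizontal axis is wider; red marks an adjusted p under 0.05. Rbp3, at 9.67 ± 1.38, is the red point in the photoreceptor comparison and entered the test only through the cells in which it is high. Crabp1 at 3.75 and Rxra at 2.26 did not pass, and Rxra entered the test with both P0 photoreceptors among its cells.

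Around these 9 genes, 57 further genes of the pathway were measured in 7 lists, of which 27 were detected in no cell, 7 in 1 or 2 cells and 23 in enough cells to be tested. Over the whole array 7183 of 18193 genes could be tested, a similar share, so such sparse detection is not particular to the pathway. Between ganglion and amacrine samples 0 of the 23 passed in limma (0.0696% of all genes tested) and 1 had an unadjusted p under 0.05 (3.94% of all). Their median difference was 0.28 against -0.06 over all genes tested. Rdh13, Dgat1, Rxrg and Nr4a1, named for this reason, entered the test through ganglion cells alone, so that median is a description. Between photoreceptors and the others 1 of 23 passed in limma as higher and 0 as lower, against 1.5% and 0.626% of all genes tested. An unadjusted p under 0.05 was found for 3, against 12.2% of all, and the median was -0.50 against -0.57. The gene that passed was Rbp3, the retinoid carrier that photoreceptors secrete. It was at 15.02 and 15.11 in the P0 photoreceptors and 19.60 in the adult rod, and detected in no other cell (difference 9.67 ± 1.38 SE). It entered the test through those 3 cells alone and so had to differ, and its values are a description.

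Among uptake genes and carriers (1 of 5 tested), Fabp5, a fatty acid binding protein that can also carry retinoic acid, was detected in 21 of 22 cells at up to 16.35, the exception being the adult rod. Its means were 14.04 in ganglion, 13.39 in amacrine and 10.12 in photoreceptor samples, and the photoreceptor difference of -3.59 ± 1.30 did not pass (limma adjusted p = 0.141). Stra6, the membrane receptor for the retinol carrier, was detected in the E13.5 ganglion cell at 11.03 and in P0 amacrine cell B1 at 13.25. Of the enzymes of retinol and retinal, 6 of 14 were tested and 7 were detected in no cell. Adh5, a broadly expressed alcohol dehydrogenase, was detected in 16 cells. Rdh10, which makes retinal for retinoic acid synthesis in embryos, was detected in 4 cells, at 13.03 in E12.5 ganglion cell F3, 13.60 in E15.5 ganglion cell B1, 11.05 in P0 ganglion cell F1 and 10.65 in amacrine cell J6. The first 3 of these also detected Crabp1, and J6 did not. Rdh10 was named after its values were seen.

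The degrading enzymes were each found in 1 cell, Cyp26a1 in E14.5 ganglion cell E1 and Cyp26b1 in P0 ganglion cell A3 at 11.59. Of the other nuclear receptors, 4 of 11 were tested and 6 were detected in no cell. Rxrg was detected in 4 ganglion cells, at 12.62 in E12.5 cell F6 and at 12.05, 12.43 and 11.77 in P0 cells A3, C6 and F1, and in no amacrine cell or photoreceptor. Its ganglion minus amacrine difference of 0.75 ± 0.89 did not pass (limma adjusted p = 0.999). Rxrg entered the test through those 4 ganglion cells alone, so this difference is a description. E12.5 F6 and P0 A3 were also the ganglion cells with Rxrb. Rarg was detected in the adult rod at 10.19, where Rara was too. The rod had 55.0% of genes above the floor, and the part of that in both values was not tested. Thra, a thyroid hormone receptor that pairs with the retinoid X receptors, was detected in 16 cells, 9 ganglion, 5 amacrine and 2 photoreceptor.

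Of 8 coregulators of nuclear receptors, 6 were tested and 2 were detected in no cell. The coactivators Ncoa1 and Ncoa2 and the Mediator subunit Med1 were detected in 15 cells each and the acetyltransferase Crebbp in 14. Ncoa1 had a photoreceptor mean of 14.78 against 11.31 in ganglion and 10.43 in amacrine samples, a difference of 3.91 ± 1.42 that did not pass (limma adjusted p = 0.141). Of 9 genes known to respond to retinoic acid, 4 were tested and 5 were detected in no cell. Meis1 was detected in 13 cells and Meis2 in 8, both homeobox factors. Nr2f1, a nuclear receptor of neural patterning, was detected in 5 of 13 ganglion cells and 5 of 6 amacrine cells, with means of 9.60 and 12.29, and the difference of -2.69 ± 1.43 did not pass (limma adjusted p = 0.999).

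The 10 tested genes with a pattern most like that of Crabp1 over the 22 cells, by Pearson's r of log2 signal, had r from 0.71 to 0.84. These r are descriptions: the cells share amplification, scaling and a floor at which many values tie. The genes were Stub1 (0.84), a ubiquitin ligase, the splicing factor gene Cdc5l (0.80), Ndufa3 (0.79), of respiratory complex I, the peptidase gene Pepd (0.76), Cnr1 (0.76), Armh4 (0.75), Elavl3 (0.74), a neuronal RNA-binding protein, Coasy (0.73), of coenzyme A synthesis, Mindy1 (0.72) and Nrp1 (0.71), a receptor for axon guidance signals. The probe sets of Stub1, Ndufa3 and Mindy1 are of the class that may hybridise with other transcripts. Of the members, Crabp2 had r = 0.31 with Crabp1, lower than 1085 tested genes, Rxra -0.14 and Rxrb -0.09.

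Cnr1, the gene of the cannabinoid receptor, had the highest r within ganglion cells of these 10 genes (0.96 over 13 cells; other genes were not ranked there), and r = 0.17 in the other 9 cells. Early ganglion cells stood between 11.41 and 14.42. At E15.5 Cnr1 was at 13.65 in B1 and at the floor in B5 and C7, and at P0 it was at 10.84 in F1 and at the floor in A3, C6 and A6. The ganglion cells that detected it were thus the 8 that detected Crabp1. Amacrine cell G3, the highest in Crabp1, was at the floor for Cnr1, whereas J6 was at 12.48 with Crabp1 at the floor. Nrp1 was likewise detected in all 6 early ganglion cells (r = 0.83 in ganglion cells, -0.47 in the others), but at E15.5 also in C7 at 12.04. Stub1 (12.15), Cdc5l (12.68), Pepd (12.81) and Armh4 (13.76) were detected in E15.5 cell B1 and were at the floor in B5 and C7. The number of genes detected was 2475 in B1, 2465 in B5 and 1517 in C7, the lowest of all cells, and its part in the result was not tested.

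**Figure D4:**
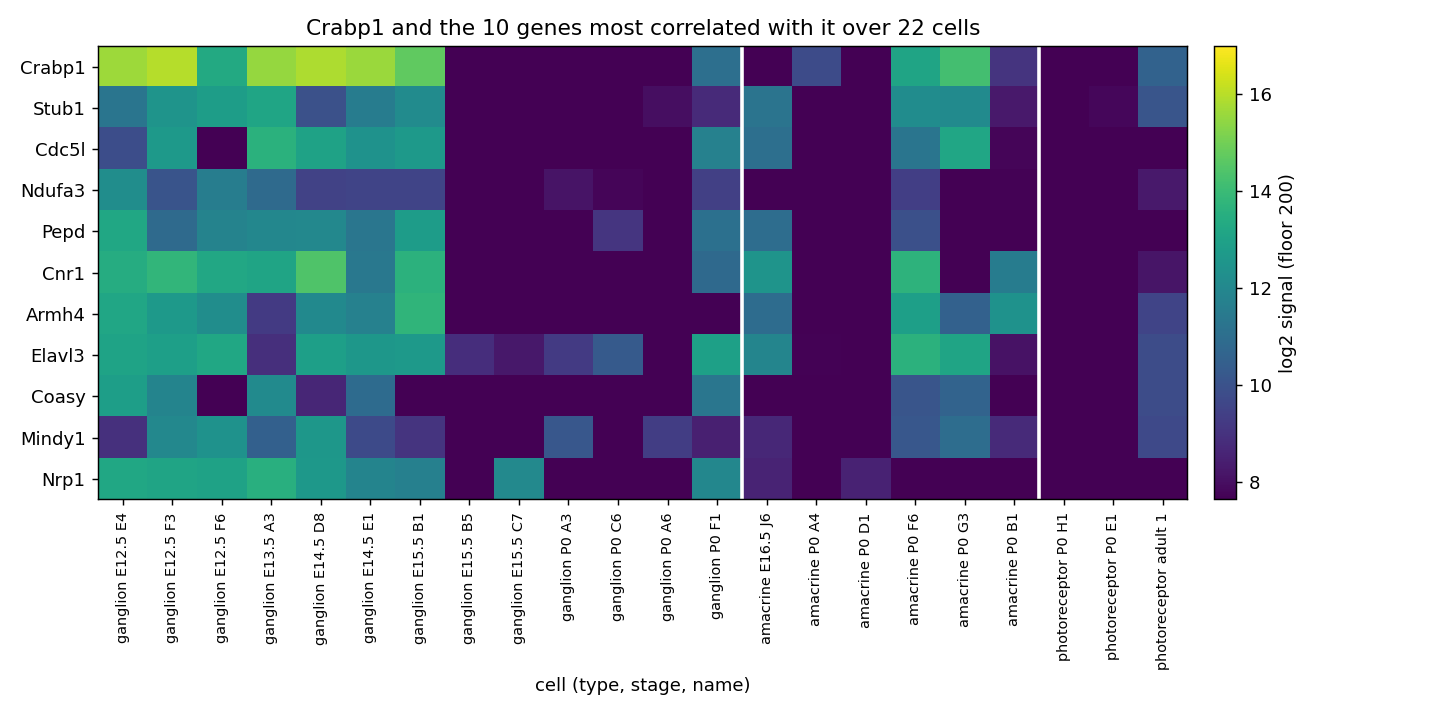
Log2 signal (colour, floor 200) of Crabp1 and the 10 genes most like it by Pearson's r, in rows, over the 22 cells in columns. E15.5 ganglion cell B1 resembles the earlier cells in most rows, while B5 and C7 are at the floor in most; Cnr1 follows Crabp1 in ganglion cells and departs from it in amacrine cells G3 and J6.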

How the data were processed

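The deposited values are signal intensity that the authors computed with MAS5, per the submitters' processing notes, on a linear scale. Per the labels' protocols, cells were taken from papain-dissociated retinas and their cDNA was amplified by PCR before hybridisation, in which weak transcripts can be lost, so a value at the floor does not show that a gene is off. The values show 21 arrays at a 2% trimmed mean of 500, and P0 amacrine cell B1, at 18.1, was multiplied by 27.6. No genome build applies to the arrays.

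Of 45101 probe sets, 34958 list 1 gene, 932 several and 9211 none, and a gene was represented by its probe set of highest mean. No 2 arrays were copies: over 231 pairs Pearson's r reached at most 0.70. Values were floored at 200, log2 transformed and averaged over the cells of a type and stage. A mean per type was fitted to the 9 samples with lmFit and trended eBayes (limma 3.58.1, R 4.3.3; 6 residual and infinite prior df) for 7183 genes at 1000 or more in at least 3 cells, with calls at a Benjamini-Hochberg adjusted p under 0.05. The script was tested on simulated data.

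The members, lists and tests were chosen with earlier results of these data known. Genes were named if they were members, passed a test or were detected in at least 8 cells (up to 4 a list). Also named were the Cyp26, Stra6, Rarg and Rxrg set and the 10 genes most like Crabp1. From the lists of cell type markers, genes detected in most cells could be named, and the blood and immune list is named in full. The text marks those named after their values were seen. Alternatives changed the floor, scaling, probe set rule, filter, averaging, variance model and cells. The number of arrays limits the precision.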

Additional observations from a re-analysis of the deposited data

Results flagged for a closer look

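Of 8 groups of 4 or 5 values examined for Crabp1, Crabp2, Rxra and Rxrb, 2 held a value far from the others. Groups of P0 cells were examined only where a cell detected the gene. Both values stood apart from ties at the floor, so no rate expected by chance applies. P0 ganglion cell F1 had Crabp1 at 11.07 while the other 3 cells of its group were at the floor, and these values are among those that chose the genes. Among the 5 ganglion stage means of Rxra, that of E14.5 stood at 10.24 and the other 4 at the floor, and it rests on cell E1 at 12.03. Where the remaining values all lie at the floor, any value above it stands apart.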

How the results depend on the processing

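No paired analysis was possible because the labels name cells and give no replicate numbers shared between groups. The Crabp1 difference between E12.5 and P0 ganglion cells (6.48) stayed between 5.49 and 7.99 over 20 alternatives, and between 5.98 and 7.34 when single cells were left out. The P0 amacrine minus ganglion difference (2.25) ranged from 1.39 to 3.35, or 1.39 to 3.11 over single cells left out. The count of the other 8 genes without overlap between E12.5 and P0 was 0, but 1 with log2(signal + 100) and no floor, where Rarb is lower at E12.5 at signals of 1.74 to 21.8, and 0 to 1 over single cells left out (Crabp2, without E12.5 cell F3). No member passed in limma under any alternative: the adjusted p of Crabp1 between ganglion and amacrine samples ranged from 0.574 to 1 and that of Rxra in photoreceptors from 0.127 to 0.632, with a difference of 1.43 to 4.002. The cause of the changes below was not tested.

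Genes called between ganglion and amacrine samples (5) became 1 with a floor of 500, 9 with log2(signal + 100), 10 with quantile normalization, 1 with the mean over probe sets, 31 with no filter, 0 with the median over cells (limma; 263 at an unadjusted p under 0.05), 8 with gene-wise variances, 2 without the adult rod and the E16.5 amacrine cell, 1 without both E14.5 cells (chosen after seeing the data) and 1 to 9 over single cells left out. Genes called in photoreceptors (153) became 44 with the mean over probe sets, 56 with no filter, 47 with the median, 51 with gene-wise variances, 27 without the rod and the E16.5 cell, 101 without both E14.5 cells and 44 to 161 over single cells left out, the lowest without the E16.5 amacrine cell and 67 without the rod.

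Directions reversed for 5 values of the members, each smaller than its SE or than the spread between cells. Rxrb, ganglion minus amacrine (0.01), was -0.10 with a floor of 50, -0.15 with log2(signal + 100), -0.39 with the median and -0.67 without the rod and the E16.5 cell, and -0.67 to 0.35 over single cells left out. Rxra (-0.05) was 0.25 with a floor of 500 and 0.18 with the median, and ranged from -0.17 to 0.31 over single cells left out. In photoreceptors, Crabp2 (-0.31) was 0.67 with a floor of 50 and 0.21 with log2(signal + 100), and Rxrb (0.45) ranged from -0.69 (without P0 photoreceptor H1) to 1.59 (without the rod) over single cells left out. Rxrb at E12.5 minus P0 (-0.07) was 0.15 with a floor of 500, 0.28 with quantile normalization and -1.60 to 0.87 over single cells left out.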
